A study of Rattus norvegicus with 6 samples.

Results

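miR-199a-5p, miR-199a-3p and miR-214 are 3 of the 677 miRNAs on the rat array hybridised with RNA of tendon-derived stem cells (rTDSCs), and they were taken by their array names, without star arms. In mammals these miRNAs are processed from Dnm3os, a non-coding transcript that lies antisense within the dynamin gene Dnm3 and is active in mesenchymal cells, where the transcription factor Twist1 is known to drive it. rTDSCs at passage 3 from patellar tendons of male Sprague Dawley rats, 8 weeks old, were grown on flexible plates coated with collagen type I. Their colonies had been pooled at passage 0, so each sample is a mixture of clones. The loading group (3 samples) was stretched cyclically along 1 axis for 7 days, with 8 h of stretch daily, a frequency of 0.5 Hz and an elongation of 10%, and the non-loading group (3 samples) was kept static for the same 7 days. There was 1 one-colour array for each sample. No source used here says whether the 3 samples of a group came from separate animals or cultures, so p-values measure the spread between these samples, which may be technical.

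In the sequences given below, the 2 arms of miR-199a lie in 1 hairpin. They have different seeds, the stretch with which a miRNA recognises its targets. In the classical view 1 arm of a hairpin is kept and the other is degraded, but for miR-199a both arms are known as functional. miR-199a-5p is known to target the hypoxia factor Hif1a and caveolin, miR-199a-3p to target mTOR and the receptor Met and, in chondrogenic cells, the BMP effector Smad1, and miR-214 to target the osteoblast factor ATF4. Loss of Dnm3os in mice causes skeletal defects. The comparison asks whether their levels differ between stretched and static rTDSCs.

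The mature sequences show what the array names stand for, with the seed (bases 2 to 8) in capitals. They are RefSeq sequences of the build GRCr8, all 3 members were matched by name, and the array's rno-miR-214 was taken as the 3p arm, which the unstarred name stands for.
rno-miR-199a-5p: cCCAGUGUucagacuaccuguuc
rno-miR-199a-3p: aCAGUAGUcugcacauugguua
rno-miR-214-3p: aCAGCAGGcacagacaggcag
miR-199a-5p lies at chr13:77116255-77116277 and miR-199a-3p at chr13:77116294-77116315, both on the plus strand in Mir199a2 and 16 bases apart. miR-214-3p lies at chr13:77121713-77121733 on the plus strand, in the hairpin Mir214 that starts 5329 bases after the end of miR-199a-3p. Both hairpins lie inside the span of Dnm3. The seeds of miR-199a-3p and miR-214 differ at 2 of 7 positions, and that of miR-199a-5p differs at 4 positions from miR-199a-3p and at 5 from miR-214. Among the 693 mature names of the table, 0 others share a seed with any of the 3. The count covers only the names of that table, where miR-761, known to share the seed of miR-214, was not found with that seed. miR-761 was on the array and was detected on 0 of 6 arrays.

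All 3 miRNAs were detected by the scanner software on all 6 arrays. Each had 2 probes with 10 spots per array, and the 360 spots of the 6 probes were all well above background, with 0 saturated. To compare arrays, each spot intensity was divided by the 75th percentile of its own array over the probes detected on all arrays, the probes of a miRNA were summed, and log2 was taken, so a log2 scaled signal of 0 is a signal equal to that percentile. Brightness depends on the probe and not only on abundance, so the levels of the 3 miRNAs were not ranked against each other. In RNA of whole cultures, fewer cells of a type and less RNA per cell cannot be told apart.

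None of the 3 miRNAs passed the test for a change under loading. The log2 scaled signal of miR-199a-3p was 4.55, 4.57 and 4.51 without loading (replicates 1, 2 and 3) and 4.51, 4.61 and 4.57 with it. That of miR-214 was 4.34, 4.12 and 4.05 without and 4.03, 4.20 and 4.12 with loading. That of miR-199a-5p was 1.78, 1.96 and 2.15 without and 2.28, 1.86 and 2.00 with loading. For each miRNA the groups overlapped, with the lowest and the highest array in different groups.

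**Figure D1:**
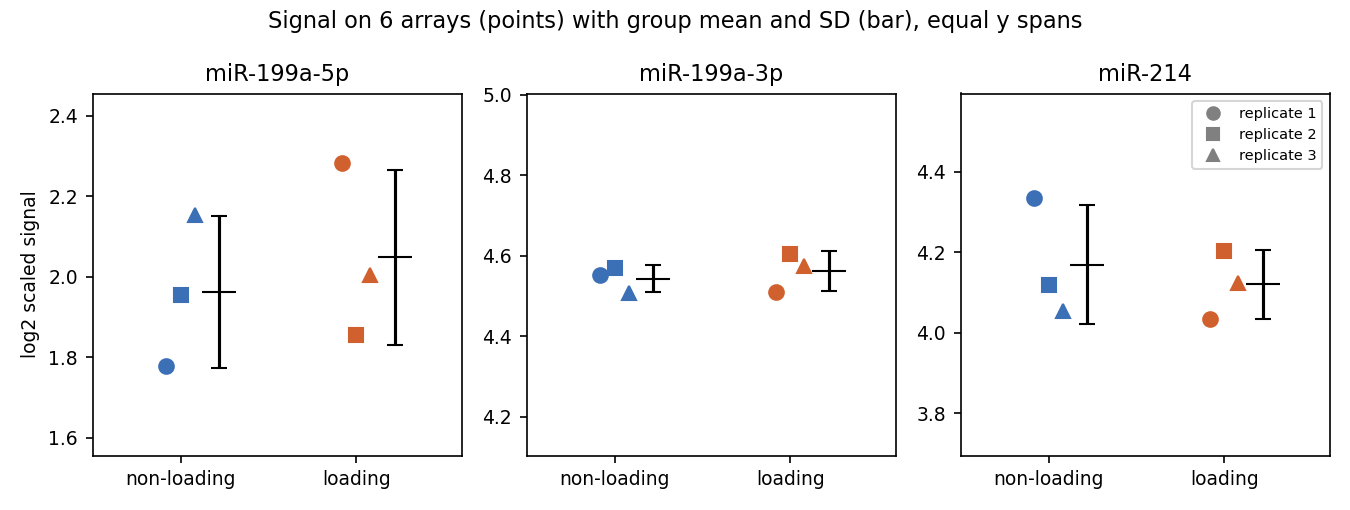
Log2 scaled signal (y axis, spans of equal height) of miR-199a-5p, miR-199a-3p and miR-214 in non-loading and loading samples, with a point for each array, the marker shape for the replicate number, and the bar for the group mean ± SD (n = 3). The points of miR-199a-3p lie within 0.098 of each other, those of miR-214 within 0.30 and those of miR-199a-5p within 0.51, and the groups overlap in each panel.

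The mean of miR-199a-3p was 4.54 ± 0.03 (SD, n = 3) without and 4.56 ± 0.05 (SD, n = 3) with loading. The log2 change was 0.020 with a standard error of 0.07 (limma adjusted p = 0.936, exact permutation p = 0.5). The 95% interval of the change ran from 0.898-fold to 1.14-fold. Under the reported scaling this was among the steadiest signals measured, as 6 of the 148 miRNAs tested had a smaller pooled SD within groups. Without scaling, the standard error of its change was 0.16, above the 0.14 of miR-214. The mean of miR-214 was 4.17 ± 0.15 (SD, n = 3) without and 4.12 ± 0.09 (SD, n = 3) with loading. It changed by -0.048 with a standard error of 0.10 (limma adjusted p = 0.885, exact permutation p = 0.7), with an interval from 0.811-fold to 1.15-fold. miR-199a-5p had means of 1.96 ± 0.19 (SD, n = 3) without and 2.05 ± 0.22 (SD, n = 3) with loading, and its change was 0.086 with a standard error of 0.15 (limma adjusted p = 0.830, exact permutation p = 0.6). Its interval was the widest of the 3, from 0.823-fold to 1.37-fold, and 102 of the 148 miRNAs had a smaller SD. The permutation tests were two-sided, and 3 arrays against 3 cannot give less than 0.1.

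Of all 148 miRNAs, limma called 0 at an adjusted p of 0.05 (0%) and 14 at an unadjusted p of 0.05 (9.46%), and the groups did not overlap for 23 (15.5%). The methods name a Newman-Keuls test, and an equal-variance comparison of the 2 groups, called the methods' t-test here, was run in its place. By the methods' t-test 15 had an unadjusted p under the stated threshold, and 2 did once Benjamini-Hochberg adjustment was made. Of the 3 miRNAs described here, 0 met any of these criteria. Over all tested miRNAs the median change was 0.064 and the median absolute change 0.113, so that the changes of miR-199a-5p, miR-199a-3p and miR-214 were smaller in size than the typical one. Their signs were not fixed: with the 75th percentile taken over all probes the changes were -0.069 for miR-199a-5p and -0.13 for miR-199a-3p, and with normexp background correction miR-214 was at 0.30. Without non-loading replicate 1, miR-199a-5p was at -0.0069 and miR-214 at 0.035, without loading replicate 1 miR-199a-5p was at -0.032, and without loading replicate 2 miR-199a-3p was at -0.0015.

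**Figure D2:**
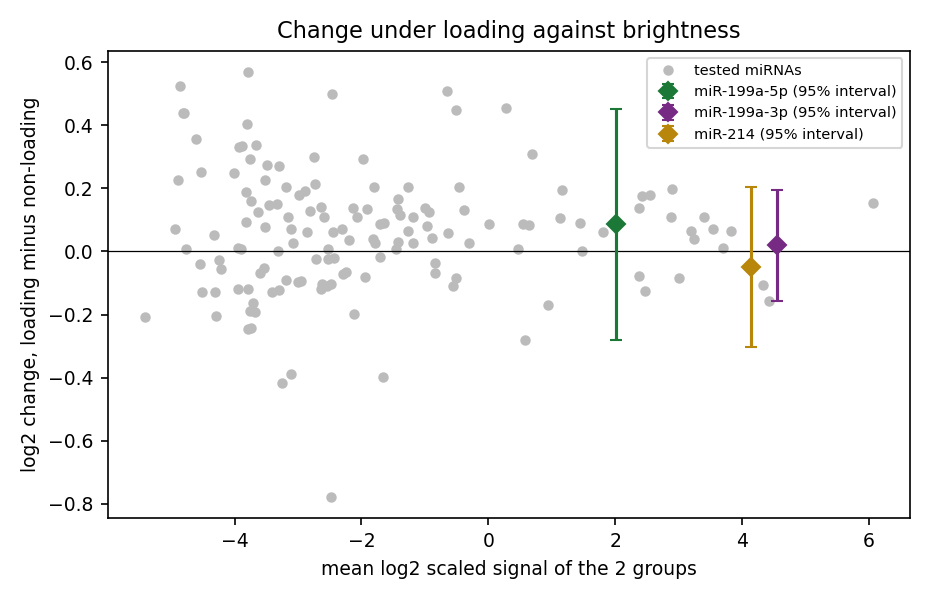
Log2 change, loading minus non-loading (y axis), against the mean log2 scaled signal of the groups (x axis) for the 148 miRNAs tested (grey points), with miR-199a-5p, miR-199a-3p and miR-214 as diamonds and their 95% intervals from limma. The 3 diamonds lie on the bright side at 0.086, 0.020 and -0.048, and each interval holds 0.

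The 2 probes of each miRNA gave changes of the same sign. On the brighter probe of miR-199a-5p the signal was 313%, 358% and 414% of the array's percentile without and 448%, 335% and 371% with loading. On its dimmer probe it was 29.5%, 29.5% and 31.7% without and 38.8%, 27.2% and 30.6% with loading. On both probes loading replicate 1 was the highest array, and the spread over the 6 arrays was 0.52 and 0.51 on the log2 scale. The error of a probe's mean on 1 array, from its spots alone, was at most 0.11 for miR-199a-5p on the log2 scale, and it leaves out labelling, hybridisation and the samples themselves. On the brighter probe of miR-199a-3p the signal was 1746%, 1722% and 1648% without and 1634%, 1759% and 1771% with loading. On the brighter probe of miR-214 it was 1435%, 1233% and 1154% without and 1135%, 1303% and 1228% with loading. On these brighter probes loading replicate 1 was the lowest array. The dimmer probe of miR-199a-3p had 600.3%, 653% and 625% without and 642%, 674% and 612% with loading, lowest in non-loading replicate 1. The dimmer probe of miR-214 had 584%, 502% and 506% without and 502%, 539% and 514% with loading, highest in non-loading replicate 1 as on the brighter probe. The probe changes were 0.087 and 0.076 for miR-199a-5p, 0.013 and 0.038 for miR-199a-3p, and -0.056 and -0.030 for miR-214, brighter probe first.

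**Figure D3:**
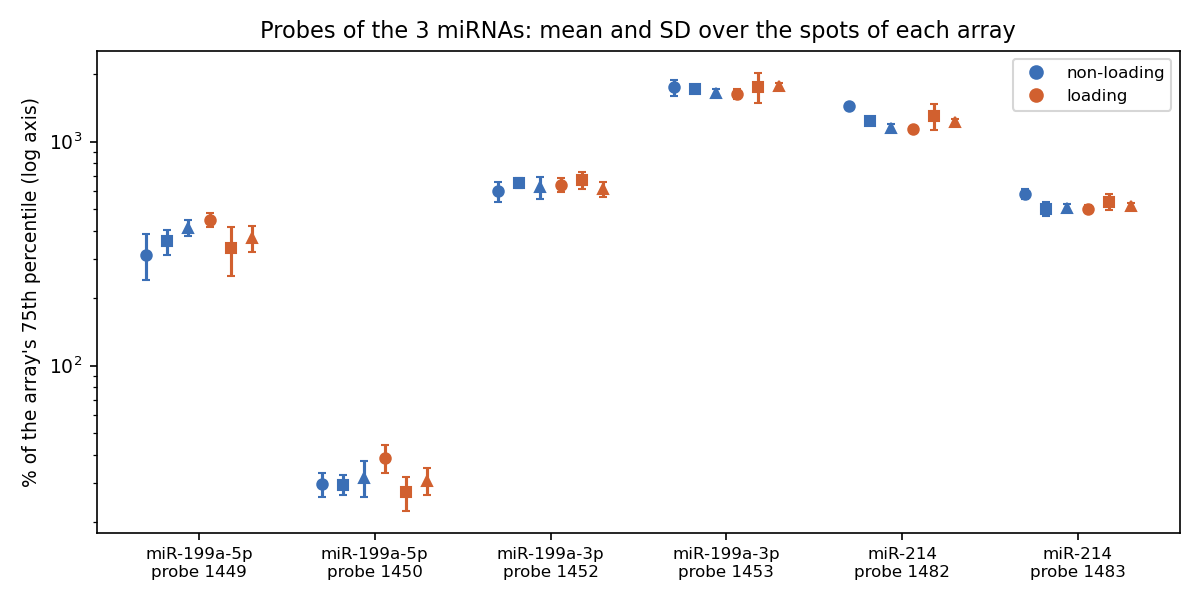
Signal of the 2 probes of each miRNA as a percentage of the array's 75th percentile (log axis), with a point for the mean and a bar for the SD over the spots of each array, in blue for non-loading and orange for loading samples, and the marker shape for the replicate. The dimmer probe of miR-199a-5p lies between 27.2% and 38.8% and the brighter probe of miR-199a-3p between 1634% and 1771%.

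The arms of miR-199a were compared by the difference of their log2 signals within each array, from which any factor common to an array cancels. Its size depends on the probes, so it was compared over arrays and not read as an arm preference. The difference, 3p minus 5p, was 2.78, 2.61 and 2.35 without and 2.22, 2.75 and 2.57 with loading. Non-loading replicate 1 and loading replicate 2 were highest, loading replicate 1 was lowest, and the groups overlapped. The arm difference was 2.58 ± 0.21 (SD, n = 3) without and 2.51 ± 0.27 (SD, n = 3) with loading. Its change was -0.066 with a standard error of 0.20 (exact two-sided permutation p = 0.7, also 0.7 after adjustment over 3 pairs). The difference miR-214 minus miR-199a-5p changed by -0.13 (standard error 0.26) and miR-214 minus miR-199a-3p by -0.068 (standard error 0.08), each with an exact permutation p of 0.7 before and after adjustment. Without non-loading replicate 1 the 3 changes were 0.031, 0.042 and 0.011, and without loading replicate 1 those of the first 2 were 0.079 and 0.027.

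Both arms were matched to the hairpin Mir199a2, and whether other hairpins add to their signal was not tested. The ratio of the arms moved 1.46-fold over the 6 arrays, and it moved with the place of the array on the slide. The 6 arrays lay on 1 slide in 2 rows. Column 1 held non-loading replicate 1 and loading replicate 2, column 2 held non-loading replicate 2 and loading replicate 3, column 3 held non-loading replicate 3 and column 4 held loading replicate 1. From column 1 to column 4 the mean of miR-199a-5p was 1.82, 1.98, 2.15 and 2.28, higher at every column than at the one before. That of miR-214 was 4.27, 4.12, 4.05 and 4.03, and that of miR-199a-3p was 4.58, 4.57, 4.51 and 4.51.

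**Figure D4:**
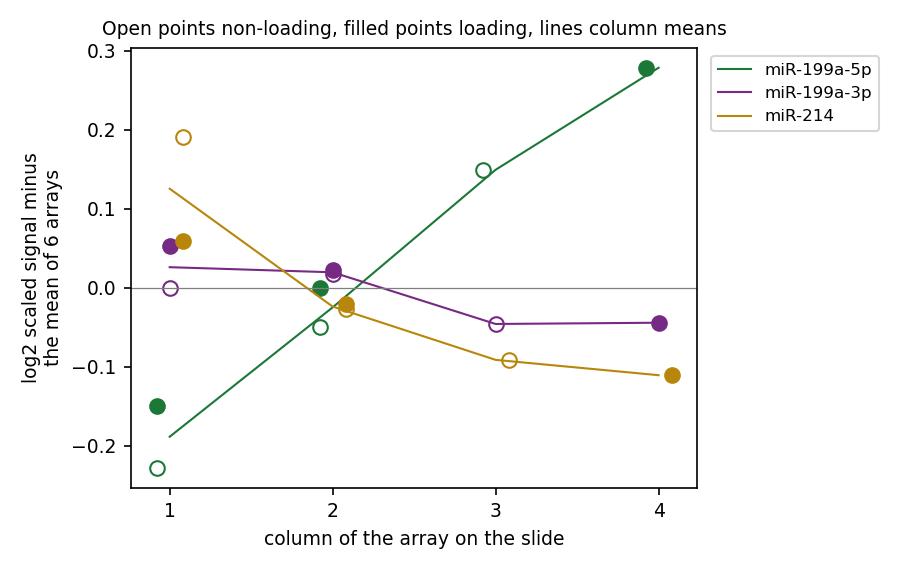
Log2 scaled signal of each array minus the miRNA's mean over the 6 arrays (y axis) against the column of the array on the slide (x axis), with open points for non-loading and filled points for loading samples and lines through the column means. miR-199a-5p is at 1.82 in column 1 and 2.28 in column 4 before centring, and the slopes of miR-199a-3p and miR-214 drawn here turn with the scaling.

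The arm difference correlated with the column at Pearson r = -0.992 (n = 6, exact permutation p = 0.0056) and Spearman rho = -0.971 (exact permutation p = 0.011), and miR-199a-5p alone at r = 0.986 (exact permutation p = 0.0056) and rho = 0.971 (exact permutation p = 0.011). After adjustment over the 9 relations computed, the exact permutation p was 0.025 for r and 0.020 for rho in both cases. The smallest p that these columns allow is 0.0056. Of the 2 arrays farthest from the median column, 1 is loading replicate 1 and the other is tied among 3 arrays. Over the 3 choices, r on the remaining 4 arrays ran from -0.990 to -0.978 for the arm difference and from 0.928 to 0.990 for miR-199a-5p. The relation was noticed in the values and then computed on the same arrays. In each group taken alone, the order of miR-199a-5p over the 3 arrays was also the order of their columns.

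A change of the scaling factor leaves the arm difference, and so its r, as it was. Of the ways of processing that can move it, r was -0.743 with quantile normalization and -0.580 with normexp, both weaker, and between -0.995 and -0.976 with normexp on replaced background values, probe signals averaged on the log2 scale, the brightest probe and outlier-flagged spots kept. Over all 11 ways the r of miR-199a-5p alone lay between 0.424, with normexp, and 0.989. For miR-199a-3p and miR-214 the sign turned with the scaling, with r from -0.888 to 0.706 and from -0.893 to 0.277, so no direction over the columns is given for them. Both probes of miR-199a-5p followed the column, at r = 0.981 and 0.920 over the 6 arrays, those of miR-214 gave -0.893 and -0.734, and those of miR-199a-3p gave -0.888 and 0.018, brighter probe first and under the reported scaling. The difference miR-214 minus miR-199a-5p also went with the column, at r = -0.961 (n = 6, exact permutation p = 0.011, 0.025 after adjustment over the 9 relations) and rho = -0.971 (exact permutation p = 0.011, 0.020 after adjustment). Over the 3 choices of arrays left out its r ran from -0.994 to -0.899, and over the 11 ways of processing from -0.985 to -0.637, the weakest with normexp. For miR-214 minus miR-199a-3p, r with the column was weaker, at -0.665 (n = 6, exact permutation p = 0.139, 0.156 after adjustment). Its rho was -0.971 (exact permutation p = 0.011, 0.020 after adjustment).

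With the column as a linear term in the limma fit, the term of miR-199a-5p was 0.156 per column with a standard error of 0.03 and missed the threshold (limma adjusted p = 0.0824), at rank 5 of 148 by p. Whether the column had a part in these values was not tested. In that fit 2 miRNAs (1.35%) had a column term with an adjusted p under 0.05 and 30 (20.3%) with an unadjusted one, so miR-199a-5p was not alone. Its change under loading was then 0.034 (95% interval -0.12 to 0.19), against an interval of -0.28 to 0.45 without the term. The term was added after miR-199a-5p was seen to follow the column, so the narrower interval is no separate support. Within column 1, loading minus non-loading was 0.079 for miR-199a-5p and -0.026 for the arm difference, and within column 2 it was 0.049 and -0.045. Columns 3 and 4 hold 1 array and 1 group each, so in them column and group cannot be told apart. With the row on the slide as a block, the change was 0.32 for miR-199a-5p, -0.36 for the arm difference and -0.46 for miR-214 minus miR-199a-5p. Each is loading replicate 1 against the 3 non-loading arrays in the 1 row that holds both groups.

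**Figure D5:**
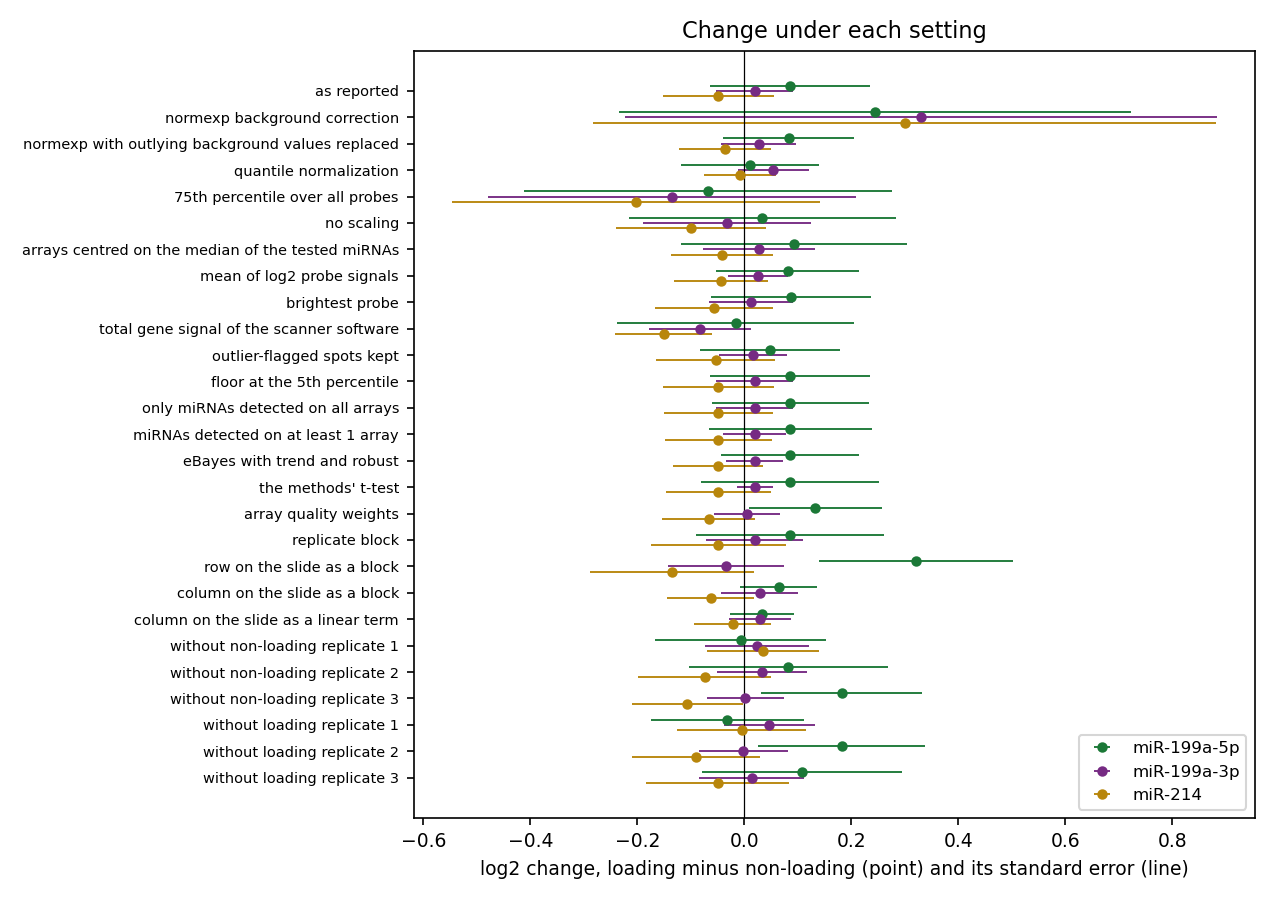
Log2 change, loading minus non-loading (x axis), of miR-199a-5p, miR-199a-3p and miR-214 under each way of processing the signals or leaving out an array (y axis), with a point for the change and a line for its standard error. The points of miR-199a-5p run from -0.069 to 0.32, those of miR-199a-3p from -0.13 to 0.33 and those of miR-214 from -0.20 to 0.30.

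The other products of the locus on the array were not detected. The star arm rno-miR-214* was detected on 0 of 6 arrays, with 2 of 120 spots well above background. rno-miR-3120, whose hairpin overlaps Mir214 by 106 bases on the opposite strand, was also detected on 0 arrays, with 1 of 120 spots well above background. Its mature sequence, given for comparison with miR-214 and with the seed in capitals, lies at chr13:77121672-77121692 (GRCr8, minus strand) and does not overlap miR-214-3p.
rno-miR-3120: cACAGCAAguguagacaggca
Both names were looked up because of their place in the locus.

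The 3 miRNAs whose profiles over the 6 arrays were most like that of each member, out of 147 others, did not include its partners of the locus. Likeness was the root mean square difference of the log2 signals after each miRNA was centred on its own mean. It was computed under the reported scaling alone, so the ranks hold for that scaling. For miR-199a-5p they were miR-23a (0.0687), miR-143 (0.0818) and miR-152 (0.0982), with miR-199a-3p at rank 45 and miR-214 at rank 86. For miR-199a-3p they were let-7a (0.0253), miR-10b (0.0259) and miR-29a (0.0369), and for miR-214 they were let-7d (0.0208), miR-146b (0.0441) and miR-379 (0.0449). miR-199a-3p was at rank 18 for miR-214 and miR-214 at rank 29 for miR-199a-3p, while miR-199a-5p was at rank 113 and 104 for them. Of these 9, 0 passed the test under loading, as 0 of all 148 did, with limma adjusted p between 0.724 and 0.972. They were picked on the same arrays by likeness to members whose groups overlap, so this count is no separate result. miR-23a had 2.63, 2.88 and 2.95 without and 3.06, 2.77 and 2.96 with loading. It was lowest on the arrays of column 1, as miR-199a-5p was, and it was chosen for its likeness to miR-199a-5p on these arrays.

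The rest of the mesenchymal programme gives the setting for the 3 miRNAs. Of 15 miRNAs known to be abundant in fibroblasts and mesenchymal stem cells, 15 were detected on at least 1 array and 14 on all 6, with miR-145, a smooth muscle regulator, on 3. Of all 677 miRNAs, 190 were detected on at least 1 array and 133 on all 6. Of the 14 tested, 13 had a change above 0 under loading and 1 below, where 99 of all 148 (66.9%) had one above 0. These signs depend on the scaling: 5 of the 14 and 25.7% of all were above 0 when all probes set the percentile, 10 and 43.9% for the total gene signal of the scanner software, 12 and 50% with quantile normalization and 11 and 18.2% with normexp. In limma 0 passed an adjusted p of 0.05 and 4 an unadjusted one, where 14 of 148 (9.46%) passed the latter. The median change of the 14 tested was 0.13, against 0.064 over all tested miRNAs. Under the 4 other settings, in that order, 0, 1, 1 and 0 of them passed the unadjusted p. Of all 148, 1, 8, 13 and 0 did. The list's median change was then -0.020, 0.032, 0.076 and 0.30, against -0.090, -0.026, 0.0028 and -0.46 over all. The highest changes were 0.45 for miR-221 and 0.30 for miR-222, which restrain the cell cycle inhibitor p27, and the lowest were -0.069 for miR-152 and 0.064 for miR-22. Their limma adjusted p was 0.0551, 0.451, 0.846 and 0.736.

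Of 19 miRNAs on the array known from cartilage or bone differentiation, 13 were tested, of which 9 had a change above 0 and 4 below, beside the 66.9% above 0 of all tested. Under the same 4 settings 1, 4, 7 and 4 of the 13 were above 0. In limma 0 passed an adjusted p of 0.05 and 1 an unadjusted one, beside the 9.46% of all tested, and the median change was 0.057. Under the 4 settings, in the same order, 0, 1, 3 and 0 passed the unadjusted p. The median change was then -0.097, -0.045, 0.0075 and -0.12, so its sign was not fixed. The highest were the hypoxia-induced miR-210 at 0.45 and the collagen-targeting miR-29b at 0.14, and the lowest were miR-26a at -0.17 and the p53-induced miR-34a at -0.12. The cartilage miRNA miR-140 was at 0.057. Their limma adjusted p was 0.486, 0.724, 0.724, 0.724 and 0.825. The lists share 4 names.

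The label of the cells was set against markers of other lineages, most of which were not detected. Of 21 miRNAs of epithelium, blood, endothelium, muscle, nerve and liver, 19 were detected on 0 arrays, among them the epithelial miR-200 family, the muscle miRNAs miR-1, miR-133a and miR-206 and the neural miR-124. Over the whole array 487 of 677 miRNAs were detected on 0 arrays, so this count says little on the label by itself. The summed scaled signal of these 19 was between -0.40 and -0.10 times the percentile on any array. The exceptions were the myeloid miR-223 and the endothelial miR-126. miR-223 was detected on 5 arrays at 6.58% to 8.75% of the percentile and not on non-loading replicate 3 (4.48%). miR-126 was detected on 6 arrays at 2.77% to 5.36% of the percentile, against a floor of 1.87% set for low signals. Under loading miR-126 was at 0.25 (standard error 0.25, limma adjusted p = 0.724). miR-223 was at 0.40 (standard error 0.22), but it entered the test only through the loading group, where all 3 arrays detected it against 2 without loading, so its change is given with no test. The groups overlapped for both.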

How the data were processed

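Per the file headers, the authors read 6 one-colour arrays with Agilent Feature Extraction 10.7.3.1, which gave every spot an intensity after background subtraction, with no scaling across arrays. The matrix deposited with them, whose columns have medians of -0.0688, 0.0199, -2.03, 0.0533, -0.422 and 0.440, differed from these intensities by 0 at most, so its scale is linear, it is not centred, and it gave no alternative of its own. Control spots and outlier-flagged spots (2.93% to 4.17%) were left out and spots were averaged per probe. Signals were divided by the 75th percentile of their array (262.6 to 362.2 intensity units, against an SD of 1.80 to 2.28 for negative controls) over the 173 probes with at least 50% of spots well above background on all arrays. Probes of a miRNA were summed, with a floor at the 1st percentile of detected signals. A miRNA was tested where every array of 1 or both groups detected it, and these 148 were fitted with limma 3.58.1 in R 4.3.3 (lmFit, eBayes) with Benjamini-Hochberg adjustment and a threshold of 0.05, and single values were compared by exact permutation. The limma step was also run on simulated data with independent errors for each miRNA and array, so that run does not cover effects of the column. Alternatives changed background correction (normexp on median signals), scaling, probe summary, detection filter, floor, test, blocks and arrays left out.

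Members and lists were chosen with earlier results of these data known. The text names the 3 members, the array names of the locus, the 3 miRNAs most like each member, and the 2 highest and 2 lowest changes of 2 lists. miR-3120, miR-761, miR-140, miR-145, miR-223 and miR-126 and the uses of the column were added after values or annotation were seen. The array grid is of rn4, its files give no coordinates, and GRCr8 coordinates are those of the RefSeq sequences.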

Additional observations from a re-analysis of the deposited data

How the results depend on the processing

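Precision is limited by having 3 arrays in a group. In no setting did 1 of them pass an adjusted p of 0.05 in limma, where it ran from 0.679 to 0.999 for miR-199a-5p, 0.788 to 0.996 for miR-199a-3p and 0.709 to 0.996 for miR-214. Normexp with replaced background values and the column as a block or a linear term were chosen after seeing the data, and none of these turned a sign. Slide and scan were not used as blocks, as all arrays were on 1 slide and in 1 scan.

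With normexp miR-214 was at 0.30 against a median of -0.46 over the tested miRNAs, the arm difference was at 0.085 and miR-214 minus miR-199a-5p at 0.055. With quantile normalization the arm difference was at 0.044. With array quality weights it was at -0.13 and miR-214 minus miR-199a-5p at -0.20. With the percentile over all probes miR-199a-5p was at -0.069 and miR-199a-3p at -0.13, with the total gene signal of the scanner software they were at -0.016 and -0.082, and miR-199a-3p was at -0.032 without scaling and at -0.035 with the row as a block. The cause was not tested.

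With 1 array left out, the change ran from -0.032 to 0.18 for miR-199a-5p, from -0.0015 to 0.047 for miR-199a-3p, from -0.11 to 0.035 for miR-214, from -0.18 to 0.079 for the arm difference, from -0.29 to 0.042 for miR-214 minus miR-199a-5p and from -0.11 to 0.011 for miR-214 minus miR-199a-3p.

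Of all miRNAs, 2 passed an adjusted p of 0.05 with quantile normalization, the brightest probe, probe signals averaged on the log2 scale, outlier-flagged spots kept, either other filter on detection (133 or 190 tested), eBayes with trend and robust, the methods' t-test and array quality weights, and 0 did with any 1 array left out. The number past an unadjusted p of 0.05, 14 as reported, was 0 with normexp, 7 with its background values replaced, 1 with the percentile over all probes, 4 without scaling, 8 with the total gene signal and 7 with the row as a block, and 6 to 17 with an array left out (7 without loading replicate 1, 6 without loading replicate 3). Of these, 13 were higher and 1 lower as reported, against 8 and 5 with quantile normalization, 9 and 2 with arrays centred on the median, 10 and 4 with the brightest probe, 3 and 5 with the total gene signal and 3 and 1 without scaling.

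No source used here says that equal replicate numbers mark paired samples. After subtracting group means, arrays of equal number correlated at -0.69, -0.47 and 0.11 across miRNAs; they lay in different slide columns, so this does not settle the pairing. With the replicate block the changes were 0.086, 0.020 and -0.048 for miR-199a-5p, miR-199a-3p and miR-214, those of the differences were -0.066, -0.13 and -0.068, and 6 miRNAs had an unadjusted p under 0.05.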

Other observations

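The column of the slide also went with other miRNAs. Of the 30 with an unadjusted p under 0.05 for the column term in limma, 6 had a positive and 24 a negative term, where the median over all 148 was -0.028 per column. The 2 with an adjusted p under 0.05, named after their values were seen, were miR-139-3p and miR-743a. miR-139-3p fell by 0.88 per column (standard error 0.09, limma adjusted p = 0.0153). Its log2 scaled signal was -1.06 and -1.86 in column 1, -2.39 and -2.31 in column 2, -2.82 in column 3 and -4.43 in column 4. miR-743a fell by 0.75 per column (standard error 0.06, limma adjusted p = 0.00791), from -2.75 and -3.07 in column 1 to -5.09 in column 4. miR-743a was not detected on the array of column 3, where its value was -4.52, and was detected on the other 5. These terms were fitted under the reported scaling alone.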
